A study of Mus musculus with 24 samples.

Results

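RNA sequencing of the ventral tegmental area (VTA) compared Vdr-/- with wild-type (Vdr+/+) mice after an injection of morphine. These samples are 6 of the 24 in the series, 3 for each genotype, and all 26667 genes in their table were considered, of which 16029 were abundant enough to test. All mice were on a C57BL/6 background and received morphine sulfate intraperitoneally at 5 mg/kg, and bilateral micropunches of the VTA were collected 90 min later. Wild-type mice are numbered 1.0, 1.1 and 1.2 and Vdr-/- mice 2.0, 2.1 and 2.2. The Vdr-/- mice lack the vitamin D receptor in all tissues and were raised on a diet enriched in calcium and lactose, which allows the skeleton to calcify. The diet of the wild-type mice is not given in the sources used here, and where it differed, genotype and diet cannot be told apart. The comparison asks which VTA transcripts differ between the genotypes once morphine has been given. The same genotype comparison in 6 other mice given PBS, and in the nucleus accumbens (NAc) of mice with the same 6 numbers, is used only to place it.

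Vitamin D acts through the vitamin D receptor, a nuclear receptor that pairs with retinoid X receptors and binds DNA at repeats of a short half-site. The VTA holds the cell bodies of the dopamine neurons that project to the NAc, beside GABA and glutamate neurons. Morphine acts on mu opioid receptors of the local GABA neurons and thereby releases the dopamine neurons from inhibition.

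Vdr, the targeted gene, was barely detected. It held 17, 6 and 5 reads in wild-type mice 1.0, 1.1 and 1.2 and 6, 8 and 12 reads in Vdr-/- mice 2.0, 2.1 and 2.2. The groups overlapped, and Vdr fell below the filter of a mean normalized read count of 10, so it could not be tested. Reads from exons that the deletion leaves in place cannot be separated in a gene count, and the genotypes are therefore taken from the labels. All 6 libraries carried the Y-linked transcript Ddx3y, at 1442 to 1743 normalized counts, and nearly no Xist.

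Each library held 14358046 to 19363073 reads on genes (median 16142616.5). Values given below are normalized read counts, that is, reads divided by the size factor of the library. Marker genes of midbrain dopamine neurons were present in every library, but their summed level differed between mice by more than it did for most cell types. The 8 markers together reached 106 to 368 CPM (reads scaled to the library's total on genes) in wild-type and 409 to 871 CPM in Vdr-/- mice. In mice given PBS they reached 1847 to 2365 CPM in wild-type and 332 to 1763 CPM in Vdr-/- mice. The serotonin markers Slc6a4, Tph2 and Fev were below the filter. A principal component with 42.0% of the variance set wild-type mice 1.1 and 1.2 against Vdr-/- mice 2.1 and 2.2.

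At an adjusted p under 0.05 (limma, two-sided, Benjamini-Hochberg), 10 of the 16029 genes tested changed (0.0624%). Of these, 6 were higher and 4 lower in Vdr-/- mice, and none overlapped between the groups. They are the alpha-tubulin gene Tuba1c, the tubulin pseudogene Gm14150, the ribosomal protein pseudogene Rpl3-ps1, the transmembrane protein pseudogene Tmem181b-ps, the complement inhibitor Cd59a and the amino acid transporter Slc38a2 on the higher side. On the lower side are Gm15446, the olfactory receptor Olfr287, the insulin-degrading protease Ide and the transcription regulator Btaf1. Without adjustment, 765 genes were higher (4.77%) and 641 lower (4.0%) at p under 0.05. All 3 Vdr-/- mice lay above all 3 wild-type mice for 1133 genes (7.07%) and below them for 1194 (7.45%). DESeq2 on the same reads called 94 of 16026 genes (0.587%), 53 higher and 41 lower, and edgeR called 10, and both sets included all 10 genes above.

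**Figure D1:**
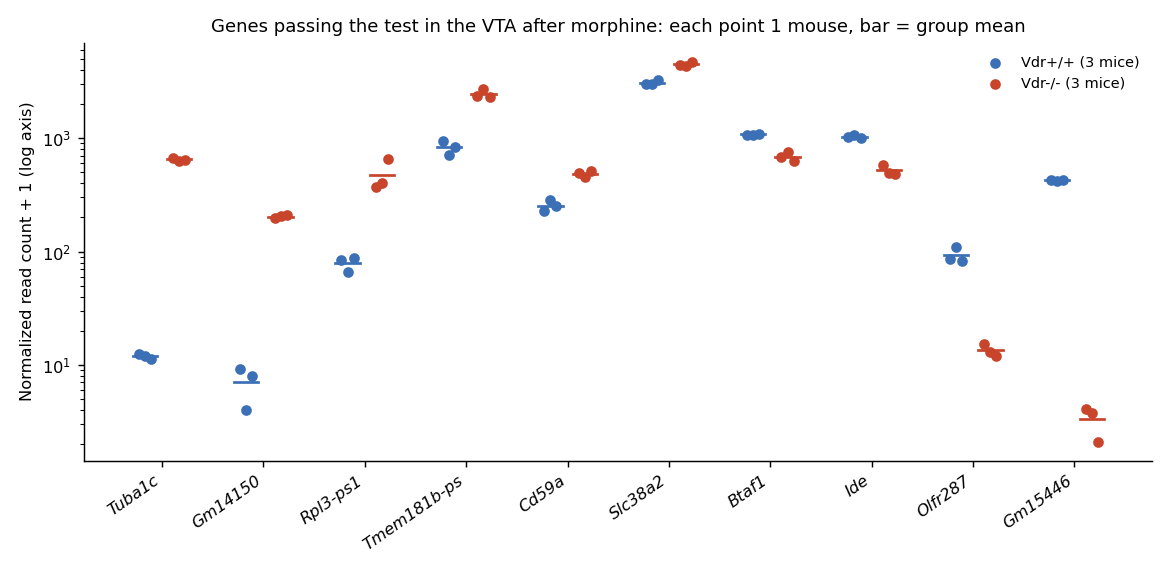
Normalized read count plus 1 on a log axis for the 10 genes that passed the test, ordered from the largest rise to the largest fall. Each point is 1 mouse (blue wild-type, red Vdr-/-) and each bar a group mean. No gene overlaps between the genotypes, from Tuba1c (10.4 to 11.4 against 634 to 672) to Gm15446 (421 to 429 against 1.11 to 3.08).

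Tuba1c, which encodes 1 of the alpha-tubulins that build microtubules, showed the largest rise. Its normalized count was 11.4, 11.1 and 10.4 in wild-type mice 1.0, 1.1 and 1.2 and 672, 634 and 647 in Vdr-/- mice 2.0, 2.1 and 2.2. The spread within each genotype was small beside the distance between them, with 11.0 ± 0.53 against 651 ± 19.5 (mean ± SD, n = 3 each). The log2 fold change was 5.77 (SE 0.12, limma adjusted p = 9.83e-07). From the summed reads, 34 against 1932, the ratio was 59.1 (95% exact interval 42.2 to 85.6, counting error only).

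Both neighboring alpha-tubulin genes were lower without passing the test. Tuba1a counted 10324, 10621 and 10464 in wild-type and 8271, 7776 and 7851 in Vdr-/- mice, with a log2 fold change of -0.39 (limma adjusted p = 0.115). Tuba1b counted 4698, 4626 and 4923 in wild-type and 3729, 3079 and 3098 in Vdr-/- mice, with a log2 fold change of -0.53 (limma adjusted p = 0.148). Neither overlapped between the genotypes, and DESeq2 called both (adjusted p = 2.09e-07 and 3.04e-05). Of the other alpha-tubulin genes tested, Tuba4a and Tuba8 overlapped.

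Gm14150 is a processed pseudogene on chromosome 2 of the same family. It counted 8.15, 3.02 and 6.91 in wild-type mice 1.0, 1.1 and 1.2 and 195, 206 and 207 in Vdr-/- mice 2.0, 2.1 and 2.2, with a log2 fold change of 4.94 (SE 0.31, limma adjusted p = 0.0018). The groups were far apart, although the wild-type libraries held only 10, 3 and 6 reads. The ratio of summed reads was 33.0 (95% exact interval 20.9 to 55.1, counting error only). Gm3756 and Gm3226, chosen after their values were seen, share most of their 25-base words with the tubulin genes. They passed under DESeq2 but not under limma, with limma log2 fold changes of 3.36 and 1.96 (adjusted p = 0.103 and 0.0989).

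Stretches of these genes are identical. Tuba1c and Tuba1b were the same at 98.0% of 1350 coding bases (GENCODE M21 transcripts, GRCm38). Over the whole Gm14150 pseudogene, 76.3% of its 25-base words occurred in Tuba1b, 68.0% in Tuba1c and 63.2% in Tuba1a. Of these words, 0 were shared with Tuba1c only, against 80 with Tuba1b only and 24 with Tuba1a only. Over 101 bases, the length of each read of a pair, 36.4% of the words of Tuba1c and 41.3% of those of Gm14150 occurred in Tuba1b. The authors counted reads with the GeneCounts option of STAR, which leaves out reads that map to several places, so each count rests on reads that were placed at 1 gene.

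Rpl3-ps1 counted 83.1, 65.5 and 86.4 in wild-type mice 1.0, 1.1 and 1.2 and 367, 399 and 659 in Vdr-/- mice 2.0, 2.1 and 2.2, with mouse 2.2 above the rest. The log2 fold change was 2.55 (SE 0.22, limma adjusted p = 0.0094), and the adjusted p was 0.052 without mouse 2.1 and 0.079 without mouse 1.2. Rpl3, which encodes a protein of the large ribosomal subunit and was chosen after its values were seen, counted 5302, 4463 and 4875 in wild-type and 3637, 3618 and 2550 in Vdr-/- mice. It had a log2 fold change of -0.59 and passed under DESeq2 (adjusted p = 0.0077) but not limma (adjusted p = 0.395). The mouse with the highest Rpl3-ps1 count had the lowest Rpl3 count. The first 101 coding bases (GENCODE M21 transcripts, GRCm38) are shown because they differ at 1 position only, in capitals, over the length of 1 sequenced read, and 85.7% of the 101-base words of the pseudogene occurred in Rpl3.
Rpl3: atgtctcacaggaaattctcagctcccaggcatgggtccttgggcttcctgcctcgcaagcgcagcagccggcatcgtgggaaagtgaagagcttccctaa
Rpl3-ps1: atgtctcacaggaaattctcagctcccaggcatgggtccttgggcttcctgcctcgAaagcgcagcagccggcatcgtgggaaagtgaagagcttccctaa

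Gm15446 nearly disappeared from Vdr-/- mice. It counted 424, 421 and 429 in wild-type and 3.08, 2.75 and 1.11 in Vdr-/- mice, which is 3, 3 and 1 reads. The log2 fold change was -7.06 (SE 0.27, limma adjusted p = 6.17e-05), and the ratio of summed reads, wild-type over Vdr-/-, was 180 (95% exact interval 87.1 to 448, counting error only). The wild-type values lay within a narrow range, 425 ± 3.66 (SD, n = 3). Gm15446 lies on chromosome 5 (109923400 to 109943936, GRCm38) and shares 42.2% of its 25-base words with the zinc finger gene Zfp932.

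Tmem181b-ps rose from 940, 705 and 840 in wild-type mice to 2361, 2710 and 2285 in Vdr-/- mice, a log2 fold change of 1.57 (SE 0.11, limma adjusted p = 0.0034). It shares 55.6% of its 25-base words with Tmem181a. Dynlt1b, a dynein light chain gene that starts 0.00841 Mb away on chromosome 17 and was chosen after its values were seen, counted 18.7, 17.1 and 33.4 in wild-type and 77.0, 78.7 and 84.1 in Vdr-/- mice (limma adjusted p = 0.115). Neither gene overlapped between the genotypes.

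Ide and Btaf1 lie 0.343 Mb apart on chromosome 19 and were both lower. Ide, which cleaves insulin and other small peptides, counted 1015, 1058 and 1005 in wild-type and 580, 496 and 484 in Vdr-/- mice, a log2 fold change of -0.98 (SE 0.08, limma adjusted p = 0.0058). Btaf1, which removes the TATA-binding protein from DNA, counted 1072, 1070 and 1091 in wild-type and 682, 751 and 627 in Vdr-/- mice, a log2 fold change of -0.65 (SE 0.07, limma adjusted p = 0.039). The wild-type mice lay close together for both genes, and no mouse of 1 genotype reached the range of the other. The limma adjusted p of Ide was 0.052 without mouse 2.1 and 0.073 without mouse 1.2, and Btaf1 missed the threshold without any mouse but 1.1, at 0.052 to 0.316.

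Cd59a, a membrane protein that blocks assembly of the complement attack complex, rose from 225, 281 and 250 in wild-type to 488, 451 and 508 in Vdr-/- mice, a log2 fold change of 0.94 (SE 0.10, limma adjusted p = 0.030). It missed the threshold without mouse 2.0, 2.1, 2.2 or 1.2, at adjusted p = 0.053 to 0.241. Olfr287, an olfactory receptor gene, fell from 84.8, 108 and 81.8 in wild-type to 14.4, 11.9 and 11.1 in Vdr-/- mice, a log2 fold change of -2.78 (SE 0.20, limma adjusted p = 0.0035).

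Slc38a2, the sodium-coupled transporter of small neutral amino acids also called SNAT2, rose least of the 6. It counted 3025, 3023 and 3230 in wild-type mice 1.0, 1.1 and 1.2 and 4376, 4360 and 4729 in Vdr-/- mice 2.0, 2.1 and 2.2. All Vdr-/- mice lay above all wild-type mice, with 3093 ± 119 against 4488 ± 209 (SD, n = 3 each). The log2 fold change was 0.54 (SE 0.06, 95% interval 0.40 to 0.67, limma adjusted p = 0.030). It missed the threshold without mouse 2.1, 2.2, 1.0 or 1.2, at adjusted p = 0.050 to 0.231.

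Gabra2, the alpha-2 subunit of the GABA-A receptor, came close to the threshold. It counted 1446, 1000 and 1255 in wild-type and 2294, 3336 and 2828 in Vdr-/- mice, with no overlap and a log2 fold change of 1.19 (limma adjusted p = 0.115, DESeq2 adjusted p = 1.49e-10). Ifit3, an interferon-induced gene, counted 79.9, 132 and 78.3 in wild-type and 22.6, 26.5 and 33.2 in Vdr-/- mice (log2 fold change -1.75, limma adjusted p = 0.115). Of the 94 genes that DESeq2 called, all 94 had an unadjusted limma p under 0.05 and 91 did not overlap between the genotypes. Over all genes tested the shares were 8.77% and 14.5%. Both counts largely follow from calling the genes on the same 6 libraries, so they are no further evidence for the calls.

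Of the 10 genes, 9 also passed the test, in the same direction, in the VTA of the 6 mice given PBS, where 64 of 16425 genes passed (0.39%). Likewise 9 passed in the same direction in the NAc after morphine, where 30 of 15638 genes passed (0.192%). The 9 shared genes are 90% of those here, 14.1% of those after PBS and 30% of those in the NAc. The PBS count rested on the libraries kept. Without both PBS libraries that the authors' tables of morphine against PBS leave out, 192 of 16388 genes passed after PBS. They included 7 of the 10 genes, in the same direction, but not Ide, Btaf1 or Slc38a2. This setting was chosen after seeing the data. PBS mice are other animals, whereas NAc and VTA punches carry the same mouse numbers and are taken to come from the same animals. Tuba1c had log2 fold changes of 5.77, 5.30 and 6.07, Gm15446 of -7.06, -7.13 and -6.38, and Ide of -0.98, -0.92 and -1.06 in the VTA after morphine, the VTA after PBS and the NAc after morphine. Gabra2 passed in both other comparisons, with log2 fold changes of 1.29 (limma adjusted p = 0.0024) and 0.95 (limma adjusted p = 7.06e-07).

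Slc38a2 was the gene that did not recur. After PBS it counted 3619, 4196 and 4019 in wild-type and 2861, 5001 and 3047 in Vdr-/- mice, values that overlapped (log2 fold change -0.16, limma adjusted p = 0.735). In the NAc after morphine its log2 fold change was 0.17 (limma adjusted p = 0.759). The difference between the VTA comparisons was 0.70 (SE 0.22) on the log2 scale, with an unadjusted p of 0.0093 and an adjusted p of 0.325 in limma, so the genotype difference of Slc38a2 was not shown to depend on morphine.

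**Figure D2:**
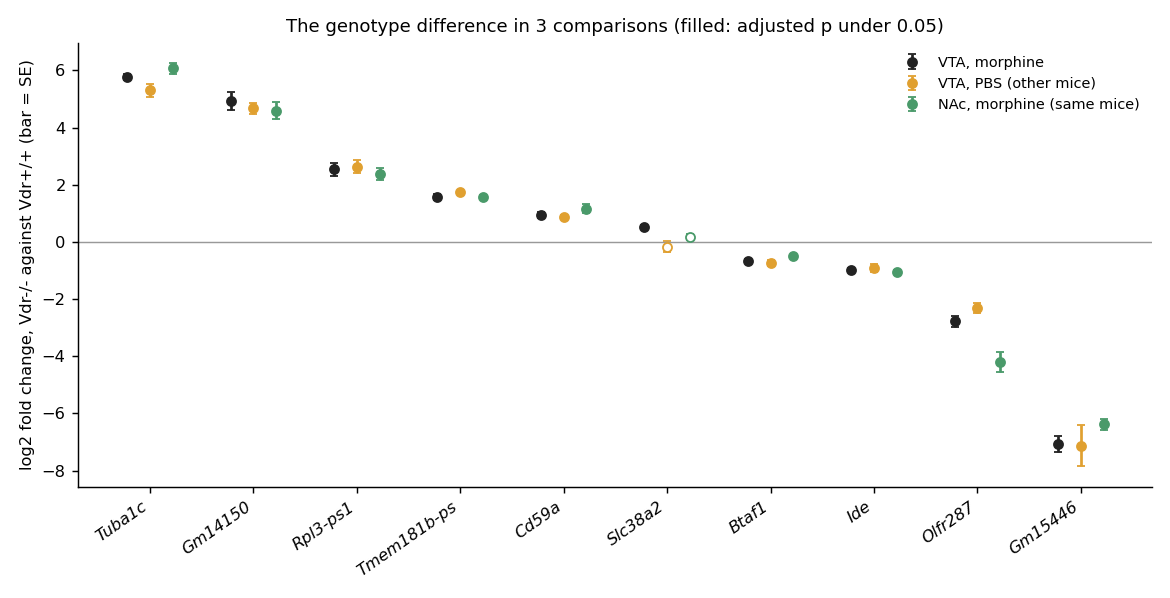
Log2 fold change of Vdr-/- against wild-type mice for the 10 genes in the VTA after morphine (black), the VTA after PBS (yellow, other mice) and the NAc after morphine (green, same mice by their numbers). Bars are standard errors, and filled symbols have an adjusted p under 0.05. The 3 values lie on the same side of 0 for each gene except Slc38a2, at 0.54, -0.16 and 0.17.

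Of the 10 genes, 3 lie on chromosome 15 near Vdr (97854425 to 97910630, GRCm38). Slc38a2 starts 1.17 Mb below Vdr, Olfr287 0.353 Mb above it and Tuba1c 1.18 Mb above it, measured between lowest coordinates. Within 5 Mb of Vdr, 3 of 128 genes tested passed the test, against 10 of all 16029 (0.0624%). There, 12.5% had an unadjusted p under 0.05 and 24.2% did not overlap between the genotypes, against 8.77% and 14.5% of all genes tested. Within 1 Mb, 1 of 31 passed, and these shares were 16.1% and 19.4%. Within 10 Mb, 3 of 181 passed, and the shares were 9.94% and 18.8%. The median log2 fold change within 5 Mb was 0.03. Col2a1, a cartilage collagen gene 0.121 Mb above Vdr and chosen after its values were seen, counted 106, 85.7 and 94.5 in wild-type and 37.0, 44.8 and 50.9 in Vdr-/- mice (log2 fold change -1.10, limma adjusted p = 0.148).

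**Figure D3:**
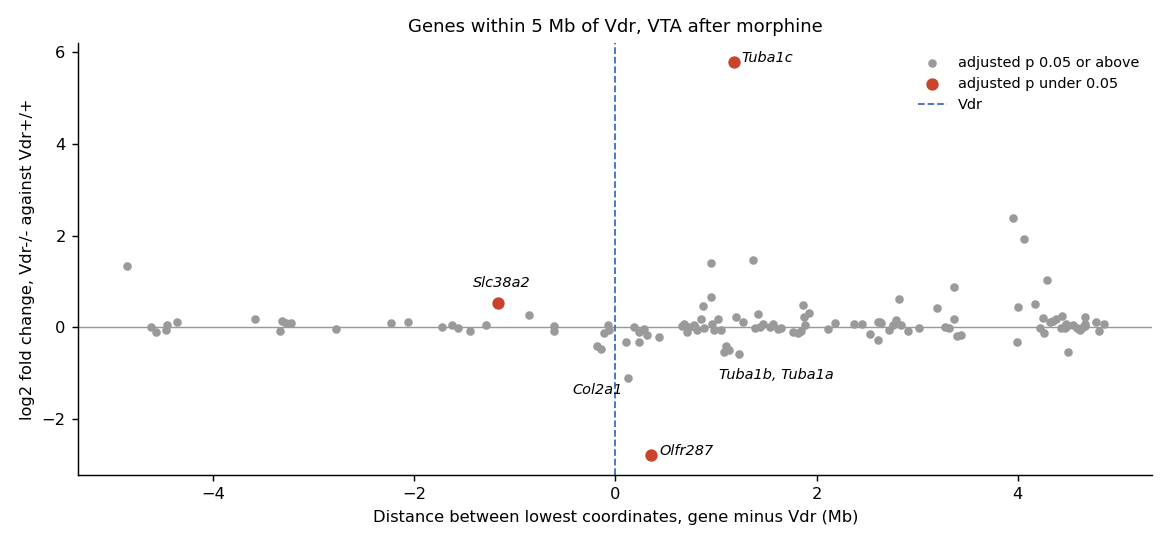
Log2 fold change of Vdr-/- against wild-type mice in the VTA after morphine (y axis) for genes tested within 5 Mb of Vdr, by the distance in Mb between lowest coordinates (x axis). The 3 genes that passed the test are red, and most of the other genes lie near 0.

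The VDR half-site AGGTCA, searched on both strands of the 250 bases before the start, occurs in 14.02% of 32851 RefSeq promoters (GRCm38.p6). Of the 7 changed genes with a RefSeq promoter, 2 hold it, Olfr287 and Ide, both of which were lower. A pair of these half-sites 3 bases apart occurs in 2 of the 32851 promoters and in none of those of the 7 genes. The promoters of both higher genes next to Vdr are shown because they hold no such half-site; a window without the letters says nothing about binding elsewhere.
Tuba1c chr15:99029641-99029890, plus strand: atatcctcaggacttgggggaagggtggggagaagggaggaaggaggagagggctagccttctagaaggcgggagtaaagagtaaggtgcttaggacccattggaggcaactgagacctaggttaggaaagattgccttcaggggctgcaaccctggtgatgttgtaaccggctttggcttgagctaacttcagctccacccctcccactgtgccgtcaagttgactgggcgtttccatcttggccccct
Slc38a2 chr15:96699729-96699978, minus strand: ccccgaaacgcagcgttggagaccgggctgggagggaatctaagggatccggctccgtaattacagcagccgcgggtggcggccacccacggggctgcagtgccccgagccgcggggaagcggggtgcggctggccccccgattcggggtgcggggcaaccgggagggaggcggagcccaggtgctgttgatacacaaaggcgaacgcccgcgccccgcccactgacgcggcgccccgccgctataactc

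Genes of the vitamin D pathway itself did not pass the test. Of 14 tested members, which include the retinoid X receptors and the nuclear receptor coactivators and corepressors, 0 passed, 7 had log2 fold changes above 0 and the median was -0.0023, against 3.5e-05 for all genes tested. Cyp24a1, the vitamin D-induced enzyme that degrades the hormone, counted 2.30 to 3.02 in wild-type and 2.21 to 4.11 in Vdr-/- mice, below the filter. Cubn, which helps to take up vitamin D-binding protein, was the member with the smallest p: it counted 83.9, 90.7 and 55.3 in wild-type and 118, 99.7 and 122 in Vdr-/- mice (limma adjusted p = 0.518). Of 22 genes for calcium channels, pumps and buffers, 0 passed and the median was -0.04.

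Dopamine neuron markers were all higher in Vdr-/- mice after morphine, but 0 of 8 passed the test. Their median log2 fold change was 1.44, and all 8 had an unadjusted p under 0.05, a share to be read against the 4.77% of all genes that were higher at that level. In 7 of 8 every Vdr-/- mouse lay above every wild-type mouse, as for 7.07% of all genes. DESeq2 called 1 of the 8, Lmx1b (adjusted p = 0.016). Th, the rate-limiting enzyme of dopamine synthesis, counted 544, 1083 and 404 in wild-type mice 1.0, 1.1 and 1.2 and 1614, 1141 and 2449 in Vdr-/- mice 2.0, 2.1 and 2.2 (log2 fold change 1.41, SE 0.38, limma adjusted p = 0.444). Wild-type mouse 1.1 and Vdr-/- mouse 2.1 lay close to each other. Slc6a3, the dopamine transporter, counted 467, 2597 and 234 in wild-type and 4002, 2625 and 6154 in Vdr-/- mice (log2 fold change 2.61, SE 0.78, limma adjusted p = 0.487). The same wild-type mouse, 1.1, was the one close to the Vdr-/- group. In bulk tissue, fewer dopamine neurons in a punch and less RNA per neuron cannot be told apart.

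The vesicular transporter Slc18a2 and the decarboxylase Ddc followed, with log2 fold changes of 1.28 and 1.24 (limma adjusted p = 0.454 and 0.401). Of 27 genes for dopamine neuron transcription factors and subtypes, 0 passed, 26 had log2 fold changes above 0 and the median was 0.78. Of the 26, 17 had an unadjusted p under 0.05, against the 4.77% of all genes that were higher at that level. Pitx3, En1, Foxa2 and Lmx1b belong both to these 27 genes and to the 8 markers, so the 2 lists are not independent. Lmx1a, a transcription factor of developing dopamine neurons, counted 165, 168 and 179 in wild-type and 268, 242 and 307 in Vdr-/- mice (log2 fold change 0.66, limma adjusted p = 0.179, DESeq2 adjusted p = 0.0069). Calb1, a calcium buffer, was the exception, at 2320, 1705 and 2097 in wild-type and 1549, 1518 and 1415 in Vdr-/- mice (log2 fold change -0.44, limma adjusted p = 0.401, DESeq2 adjusted p = 0.036). The dopamine D2 receptor Drd2 counted 394, 604 and 546 in wild-type and 753, 577 and 1001 in Vdr-/- mice, and the groups overlapped. Without wild-type mouse 1.1, 49 of 16038 genes passed in all, among them 2 of the 8 markers, En1 and Slc6a3. They also held 5 of the 27 identity genes, including En1 again and Calb1, which was lower. The median of the 8 was then 1.92. Without any other mouse 0 of 8 passed, and the median was 1.07 to 1.67.

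After PBS the direction was the opposite, with all 8 dopamine markers below 0 and a median of -1.15. Th there counted 8652, 6874 and 6634 in wild-type and 4057, 6504 and 1181 in Vdr-/- mice, in a table that was normalized separately. The difference between the 2 genotype differences was above 0 for 8 of 8 markers, with a median of 2.62. All 8 had an unadjusted p under 0.05, against 965 of all 15785 genes that were above 0 at that level. None of the 8 passed the adjusted threshold. For Th the difference was 2.63 (SE 0.75), with an unadjusted p of 0.0045 and an adjusted p of 0.31 in limma.

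Genes of neighboring tissue also varied between mice. Hcrt, the orexin precursor of lateral hypothalamic neurons, counted 2782, 782 and 4061 in wild-type mice 1.0, 1.1 and 1.2 and 705, 504 and 57.6 in Vdr-/- mice 2.0, 2.1 and 2.2 (log2 fold change -2.91, limma adjusted p = 0.506). Pmch, the melanin-concentrating hormone precursor, counted 8815, 2011 and 11732 in wild-type and 2586, 2518 and 989 in Vdr-/- mice (log2 fold change -1.67, limma adjusted p = 0.543). Wild-type mice 1.0 and 1.2, the mice with the most Hcrt and Pmch, were also those with the least Th. The list they come from did not follow them. Of 10 hypothalamic markers tested, 5 had log2 fold changes above 0 and 5 below, with a median of 0.06 and 0 passing the test. The 14 hypothalamic markers summed to 247 to 1054 CPM in wild-type and 214 to 329 CPM in Vdr-/- mice. Pmch alone held 709 of the 1054 CPM in wild-type mouse 1.2. The 8 thalamic markers summed to 398 to 1067 against 393 to 614 CPM. Thalamic markers had a median log2 fold change of -0.57, with 1 of 8 above 0, 0 passing the test and 1 called by DESeq2. It was -0.23 without wild-type mouse 1.1 and -1.01 without wild-type mouse 1.0.

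Blood and meningeal genes were highest in Vdr-/- mice 2.1 and 2.2. Hbb-bs, a beta-globin gene, counted 557, 720 and 509 in wild-type and 718, 2024 and 2398 in Vdr-/- mice, with mouse 2.0 inside the wild-type range (log2 fold change 1.36, limma adjusted p = 0.485). All 5 blood genes tested and all 11 meningeal and pericyte genes had log2 fold changes above 0, with medians of 1.30 and 0.78, and 0 of either passed the test. DESeq2 called 1 of the 5 blood genes and 0 of the 11 meningeal and pericyte genes. Blood markers summed to 46.9 to 68.1 CPM in wild-type and 66.0 to 225 CPM in Vdr-/- mice, meningeal markers to 399 to 521 against 479 to 1144 CPM. Without mouse 2.0, 36 of 16046 genes passed in all, among them 3 of the 5 blood genes. Ttr, the transthyretin made by choroid plexus, counted 1535 in Vdr-/- mouse 2.1 and 0 to 4.43 in the other 5 mice. The part of these differences in tissue makeup in the results above was not tested.

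**Figure D4:**
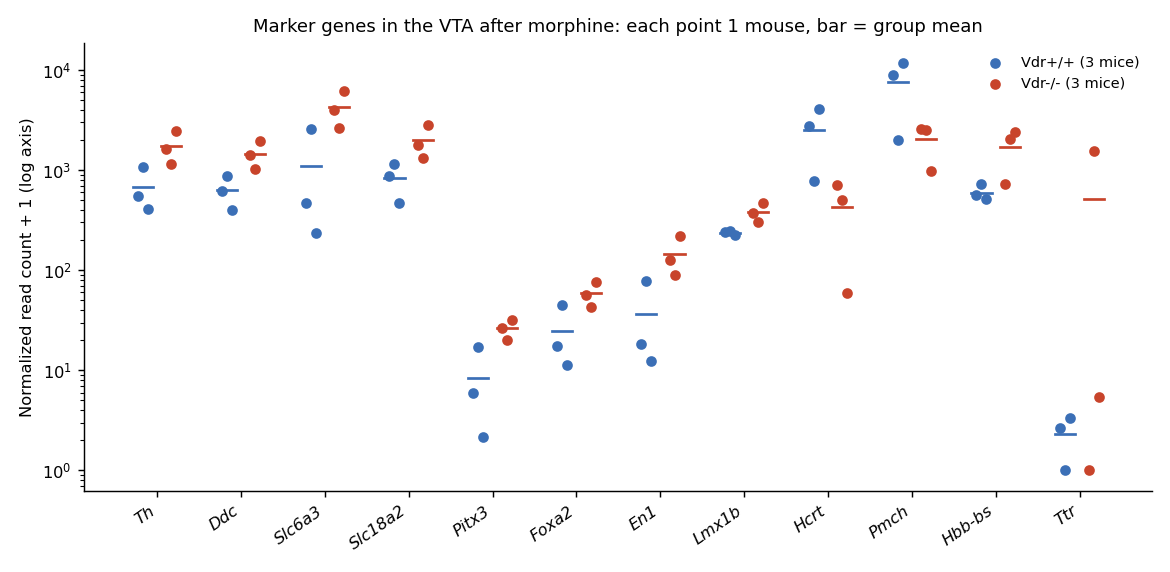
Normalized read count plus 1 on a log axis for 8 dopamine neuron markers (Th to Lmx1b), 2 hypothalamic peptide precursors (Hcrt, Pmch), a blood gene (Hbb-bs) and a choroid plexus gene (Ttr). Each point is 1 mouse (blue wild-type, red Vdr-/-) and each bar a group mean. All 8 dopamine markers have a higher mean and Hcrt a lower one in Vdr-/- mice, none past the test and Foxa2 overlapping, and Ttr stands out in 1 mouse.

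Opioid genes did not pass the test. Of 14 tested, 0 passed, 4 had log2 fold changes above 0 and the median was -0.12. Oprm1, the mu opioid receptor on which morphine acts, counted 262, 242 and 281 in wild-type and 208, 166 and 132 in Vdr-/- mice. The groups did not overlap, and the log2 fold change was -0.65 (SE 0.16, unadjusted p = 0.0043, adjusted p = 0.416 in limma). The dynorphin precursor Pdyn counted 623, 172 and 551 in wild-type and 215, 205 and 85.3 in Vdr-/- mice (log2 fold change -1.32, limma adjusted p = 0.549), low in the wild-type mouse, 1.1, that was also low in Hcrt. The enkephalin precursor Penk (log2 fold change -0.17, limma adjusted p = 0.778) and the kappa receptor Oprk1 (-0.07, limma adjusted p = 0.925) overlapped between the genotypes.

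Activity-regulated genes did not pass either, with 0 of 38, 26 above 0 and a median log2 fold change of 0.09. Fos counted 290, 321 and 335 in wild-type and 403, 299 and 295 in Vdr-/- mice, so that mouse 2.0 alone lay above the wild-type range (log2 fold change 0.06, limma adjusted p = 0.914). Npas4 had a log2 fold change of 0.20 and Bdnf of 0.18 (limma adjusted p = 0.597 and 0.632). Arc, an early gene of synapses, counted 240, 296 and 233 in wild-type and 366, 358 and 320 in Vdr-/- mice without overlap (log2 fold change 0.45, limma adjusted p = 0.416). Nr4a2, which belongs both to this list and to the dopamine identity list, had a log2 fold change of 0.90 (limma adjusted p = 0.409, DESeq2 adjusted p = 0.0068). Nptx2, a secreted organizer of glutamate receptors, went the other way, at 368, 223 and 369 in wild-type and 158, 145 and 117 in Vdr-/- mice (log2 fold change -1.16, limma adjusted p = 0.215, DESeq2 adjusted p = 6.27e-05). Of 35 genes for CREB, its coactivators and the cAMP pathway, 0 passed, 14 were above 0 and the median was -0.04.

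None of the cholesterol synthesis genes passed the test in limma or DESeq2. Of 22 tested, 20 had log2 fold changes below 0, 8 of them with an unadjusted p under 0.05, against 4.0% of all genes, and in 10 all Vdr-/- mice lay below all wild-type mice, against 7.45% of all genes. The median was -0.14. Hmgcs1, an early enzyme of the pathway, counted 4866, 4870 and 4669 in wild-type and 4332, 4085 and 4157 in Vdr-/- mice (log2 fold change -0.20, limma adjusted p = 0.436). The transcription factor Srebf2 counted 4089, 4236 and 4379 in wild-type and 3764, 3596 and 3765 in Vdr-/- mice (log2 fold change -0.19, limma adjusted p = 0.449). After PBS, 19 of 22 were below 0, with a median of -0.18.

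Of 21 genes for GABA synthesis, transport and receptors, 18 had log2 fold changes below 0, with a median of -0.11, and 0 passed. Gad2, which makes GABA and was chosen after its values were seen, counted 7305, 7419 and 9726 in wild-type and 6937, 6425 and 5313 in Vdr-/- mice (log2 fold change -0.38, limma adjusted p = 0.521). Glutamate genes (29 tested, median -0.04), circadian genes (19, -0.05), glucocorticoid-responsive genes (23, 0.08), endoplasmic reticulum chaperones (20, -0.0051), heat-shock genes (15, -0.03), interferon-stimulated genes (21, 0.08) and mitochondrially encoded genes (13, -0.04) gave 0 genes past the threshold. Among these lists, DESeq2 called 2 glucocorticoid-responsive genes and 1 interferon-stimulated gene. No glial marker passed either. Log2 fold changes were above 0 for 13 of 14 oligodendrocyte markers (median 0.16), 8 of 12 astrocyte markers (0.06) and 11 of 12 microglia markers (0.12). The oligodendrocyte median was 0.0074 without wild-type mouse 1.0 and 0.38 without 1.1, the astrocyte median 0.12 without 1.1 and 0.02 without 2.2 or 1.2, and the microglia median 0.21 without 1.1, 0.077 without 2.2 and 0.076 without 1.0.

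**Figure D5:**
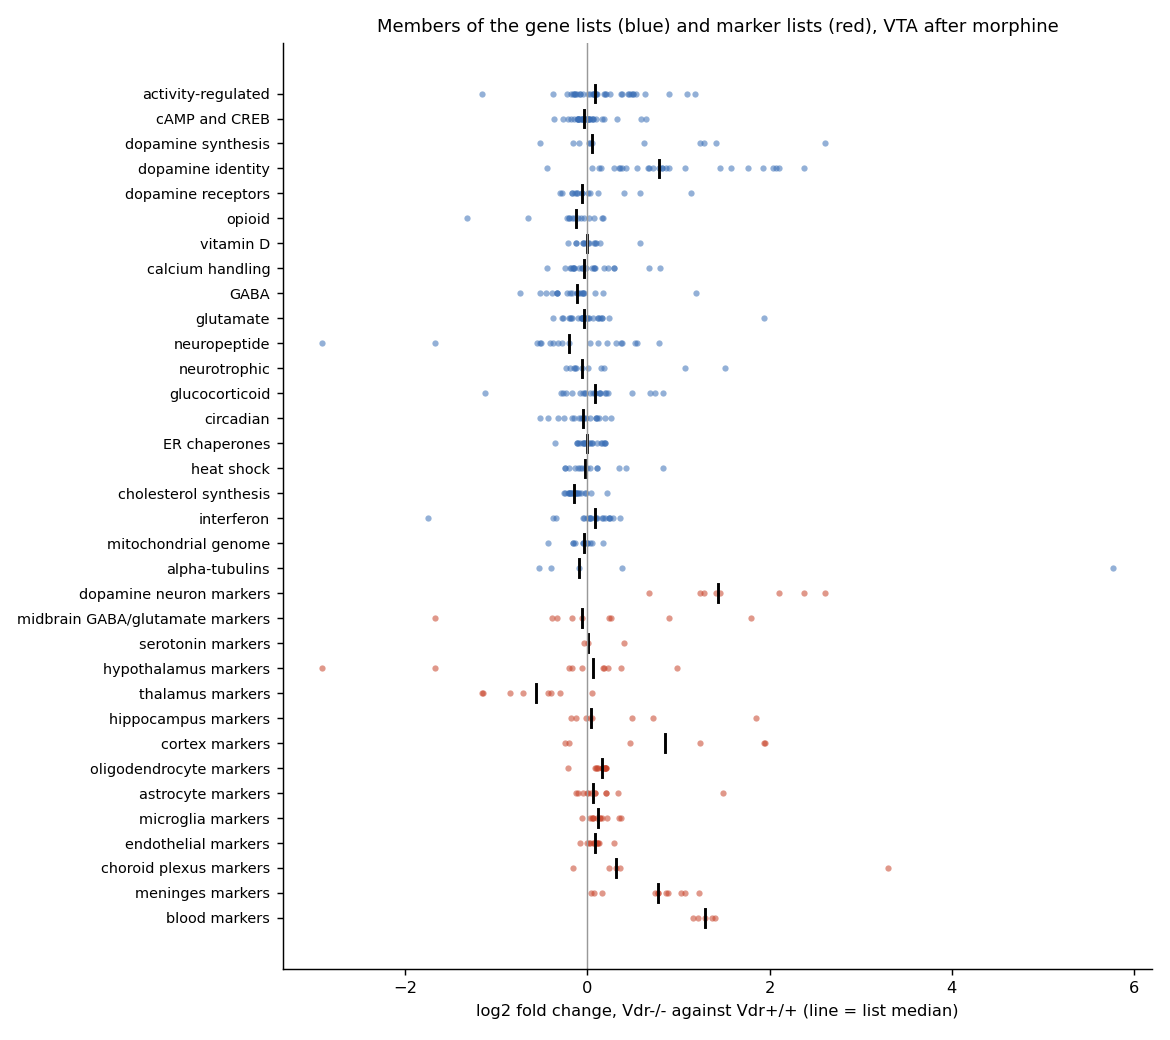
Log2 fold change of Vdr-/- against wild-type mice in the VTA after morphine for every tested member of 20 gene lists (blue) and 14 marker lists (red), with the list median as a black line. Most medians lie near 0; those of dopamine neuron markers (1.44), blood (1.30), cortex (0.85), dopamine identity (0.78) and meninges (0.78) lie above it and that of thalamus (-0.57) below.

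The genotype difference was then set against that after PBS across 12 VTA libraries. Of 15785 genes, 0 passed (0.0%) in limma and 0 in edgeR, with 1710 and 1795 at an unadjusted p under 0.05, and the smallest adjusted p was 0.28. The genes with the smallest p were Galnt15 (-0.91 on the log2 scale), Ltbp1 (1.42), Nfkbia (-1.11), Zfp36l2 (0.79) and Oacyl (-1.66). Nfkbia, an inhibitor of NF-kappaB, counted 291, 457 and 355 in wild-type and 271, 328 and 328 in Vdr-/- mice after morphine, which overlap, and its genotype difference had passed after PBS (log2 fold change 0.87, limma adjusted p = 0.0191). The count rested on the libraries kept: without Vdr-/- PBS mouse 8, 49 genes passed.

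When VTA and NAc were compared within each mouse number after morphine, 0 of 15222 genes differed between the genotypes (0.0%) in limma. At an unadjusted p under 0.05 there were 718, and the smallest adjusted p was 0.761. Padi2, an enzyme that converts arginine to citrulline, had the smallest p. It counted 599, 539 and 453 in wild-type and 738, 891 and 937 in Vdr-/- mice in the VTA (log2 fold change 0.69, limma adjusted p = 0.215). Leaving out mouse 2.0 gave 4 genes, and leaving out mouse 1.1 gave 6.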

How the data were processed

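After quality checks and adapter removal, the authors mapped reads with STAR 2.4.2a and counted uniquely placed reads for each gene with its GeneCounts option. What they deposited is a signal, gene reads over a DESeq2 size factor, and each table of 1 comparison was scaled separately. Dividing by the value of a single read gave whole counts for 100% of values (tolerance 0.01). The main test was limma 3.58.1 (lmFit, then eBayes with a mean trend) on log2 of the value plus 1, where a gene's mean reached 10. It was two-sided, and p-values were adjusted by Benjamini and Hochberg's method, with a threshold of 0.05. Fold changes on this scale understate the change of low genes. edgeR 4.0.16 and DESeq2 1.42.0 on the recovered counts were alternatives. CPM are recovered counts scaled to all reads on genes. R 4.3.3 and Python 3.11.15 were used. Gene names and positions are from GENCODE M21 (GRCm38), which held 26605 of the 26667 gene IDs.

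Groups were taken from sample titles. Replicates carry separate mouse numbers, and the labels say no more of their origin. No pair of replicates was a duplicate (chi-square per degree of freedom 4.57 to 23.7 over genes with at least 20 reads). The last digit of the mouse number does not pair the genotypes (correlations of deviations -0.28, -0.19 and -0.15). VTA and NAc were paired by mouse number on the labels alone. Between the 2 regions of a mouse number these correlations were -0.07 to 0.15, so the values do not show the pairing. In 1 further table that served to check the recovered reads of mouse 1.1, 4 library columns were not used, since they repeat libraries read from the tables analysed.

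Named genes are Vdr, up to 12 largest rises and falls among called genes without overlap, called list members with up to 3 further examples per list, called genes within 10 Mb of Vdr, a fixed set of opioid, dopamine, tubulin and early genes, and the 5 smallest p of each difference of differences. Rpl3, Dynlt1b, Col2a1, Gm3756, Gm3226, Pmch, Ttr, En1, Foxa2, Chrna6 and Kcnj6 lie outside this rule and were chosen after their values were seen. The comparison, gene lists and named genes were chosen with earlier results of these data known. On simulated counts of 16032 genes (dispersion 0.02) the main test recovered 83.7% of log2 changes of 1 and 100% of log2 changes of 2, with 4.35% false calls. The tests between injections and between regions recovered 56.7% and 54.5% of log2 changes of 1. The simulation gave every gene the same dispersion and had no differences in tissue makeup. These shares therefore do not hold for genes that vary more between mice, such as Slc6a3, which did not pass at 2.61. Intervals and ratios of reads cover counting error only. Coding sequences of the alpha-tubulin family are not reported here.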

Additional observations from a re-analysis of the deposited data

Results flagged for a closer look

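Several named genes differed between genotypes without overlap in opposite directions in 2 comparisons. In the VTA every Vdr-/- mouse lay above every wild-type mouse after morphine, and after PBS every Vdr-/- mouse lay below every wild-type mouse, for Arc (0.45 after morphine), Chrna6 (1.92), En1 (2.37), Dnajc3 (0.19), Kcnj6 (0.35), Ltbp1 (0.79), Nr1d1 (0.19), Nr4a2 (0.90), Slc18a2 (1.28), Slc6a3 (2.61), Th (1.41) and Zfp36l2 (0.33). Oacyl (-0.54 after morphine) was the reverse case. The difference itself was tested across 15785 genes with limma, and 0 passed (smallest adjusted p = 0.28). The naming of these genes favored opposite directions. Ltbp1, Zfp36l2 and Oacyl were named for a small p of this difference, and Chrna6, En1 and Kcnj6 after their values were seen. How many of all genes reverse in this way was not counted, so the list can show neither an excess nor the lack of one.

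Between VTA and NAc of the same mouse numbers, the direction was opposite for Cbln2 (-0.41 in the VTA), Lmx1a (0.66), Nptx2 (-1.16) and Syvn1 (-0.12). Among the 15222 genes in the test of this difference, 0 passed, and such reversals were not counted over all genes. Groups of 3 were too small for a search for outlying samples.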

How the results depend on the processing

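The 10 genes that changed kept their direction under all 17 alternatives, and Tuba1c, Gm14150 and Gm15446 also passed the threshold in each of them. The count was 94 with DESeq2, 26 with edgeR fitted on 12 VTA libraries and 5 with limma without a trend. With the replicate block of the last digit it was 4 (Tuba1c, Gm15446, Gm14150 and Rpl3-ps1), although that digit does not pair the mice. Leaving out single mice gave 5 to 49 genes, with 36 without Vdr-/- mouse 2.0, 5 without 2.1, 49 without wild-type mouse 1.1 and 6 without 1.2. Of the 17 alternatives, Slc38a2 missed the threshold in 7 (adjusted p = 5.89e-10 to 0.33), Btaf1 in 7 (1.23e-07 to 0.316), Cd59a in 6 (5.46e-09 to 0.244), Ide in 4 (7.09e-17 to 0.091), Rpl3-ps1 in 3, Tmem181b-ps in 2 and Olfr287 in 1. The other alternatives (pseudocount, filter, TMM, quantile normalization, edgeR on 6 libraries) gave 10 to 13 genes. The cause of these shifts was not tested.

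The difference between injections gave 0 to 49 genes when single libraries were left out, with 49 without Vdr-/- PBS mouse 8, and 9 without both PBS libraries that the authors' tables of morphine against PBS leave out, a setting chosen after seeing the data. The difference between regions gave 0 to 6, with 4 and 6 without mice 2.0 and 1.1. Among genes that did not pass, the log2 fold change changed sign for Fos (-0.084) and mt-Atp6 (0.15) without mouse 2.0, Oprk1 (0.087) without 1.0, Galnt15 (0.027) without 1.1, Kl (-0.12 without 2.1, -0.36 without 1.1) and Slc17a8 (0.065 without 2.2, 0.059 without 1.2). Htr1a gave -0.011 with quantile normalization and -0.054, -0.031 and -0.022 without 2.2, 1.1 and 1.2. Genes at or near the filter, such as Vdr with 5 to 17 reads, could not be compared at this depth.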

Other observations

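Glucocorticoid-responsive genes had log2 fold changes between the genotypes above 0 for 21 of 23 members after PBS, with a median of 0.70, and for 14 of 23 after morphine, with a median of 0.08. The difference between both comparisons was below 0 for 21 of 23, 10 of them with an unadjusted limma p under 0.05. Of all 15785 genes, 745 were below 0 at that level. After adjustment 0 passed, in the list or among all genes. The median difference of the list was -0.48, against -0.0028 for all genes.

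Microglia markers were above 0 in 11 of 12 cases after morphine (median 0.12) and in 0 of 12 after PBS (median -0.16). The difference was above 0 for 12 of 12, 3 of them with an unadjusted limma p under 0.05, and 0 of the 12 markers passed after adjustment. At that unadjusted level, 965 of all 15785 genes were above 0. The summed level of the microglia markers was 231 to 257 CPM in wild-type and 250 to 283 CPM in Vdr-/- mice after morphine, and the ranges overlapped.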
